A study of Homo sapiens with 11 samples.

Results

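The aminoacyl-tRNA synthetase genes were described here by bulk RNA sequencing in a pair of human acute myeloid leukaemia lines. The rule for the members used gene names and no measured value of theirs: 35 symbols, of which 19 encode cytosolic enzymes and 16, whose names end in 2, encode mitochondrial enzymes. All 35 had 1 row each among the 58037 rows of the count table, and all 35 passed the filter on low counts, as did 18908 rows in all. FARSA and FARSB are the subunits of 1 cytosolic phenylalanine enzyme, and EPRS1 charges both glutamate and proline tRNA. KARS1 and GARS1, counted as cytosolic here, also supply the mitochondrial enzymes for lysine and glycine, and QARS1 has no mitochondrial counterpart because mitochondria make glutamine tRNA by another route.

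OCI-AML3 is an established acute myeloid leukaemia line, and OCI-AML3-FLT3-ITD, called FLT3-ITD cells below, is the line labelled for an internal tandem duplication of the receptor kinase FLT3. How that line was made, and whether it is 1 clone, is not given in the sources used here. Cells were grown in RPMI medium with serum and exposed to 100 nM FHD-286, an inhibitor of the chromatin remodelling ATPases BRG1 (SMARCA4) and BRM (SMARCA2), for 16 h, or kept as controls. There were 3 control and 3 treated libraries of OCI-AML3, and 3 control and 2 treated libraries of OCI-AML3-FLT3-ITD. The labels do not say whether controls received a vehicle, nor whether replicates were separate cultures, so p-values measure the spread between these libraries, which may be technical.

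Aminoacyl-tRNA synthetases join each amino acid to its tRNA, the step that sets the reading of the genetic code. Cytosolic enzymes serve translation on cytosolic ribosomes, and several of them sit in a multi-synthetase complex held together by scaffold proteins, whereas the mitochondrial enzymes are made from nuclear genes and imported. When amino acids run short, the kinase GCN2 (EIF2AK4) favours translation of the transcription factor ATF4, which together with C/EBP family factors binds composite elements with the core TGATGNAA and is known to raise genes of amino acid synthesis and many cytosolic synthetase genes. MYC, which binds the E-box CACGTG, is another known activator of genes for translation.

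The promoters of the genes on which the comparisons below turn are printed first, because the cytosolic synthetases divided by line along a list of known ATF4 targets. That list was drawn up with earlier results of these data known, so the division by it is a description and no independent support. RefSeq's table for GRCh38.p14 held promoters, from 250 bases before to 50 bases after a start site, for 30 of the 35 members, and AARS2, LARS1, VARS1, VARS2 and YARS1 were not matched. A search on both strands found TGATGNAA (N is any base) in 7 of the 10 ATF4-listed cytosolic genes with a promoter, in 0 of the 6 other cytosolic genes and in 1 of the 14 mitochondrial genes. Over all 27305 genes of the table, 4.46% held it. The E-box CACGTG was in 1 of 16 cytosolic and 3 of 14 mitochondrial genes, against 8.77% of all genes. The sequences run 5′ to 3′ along the gene, with each match to either motif in capitals (TTGCATCA and TTTCATCA are TGATGCAA and TGATGAAA read on the other strand). CARS1, MARS1, AARS1 and GARS1 stand for the genes with the ATF4 element, WARS1 and FARSA for those without it, and MARS2 for the E-box.
CARS1 promoter (chr11:3057374-3057673, minus strand, GRCh38.p14): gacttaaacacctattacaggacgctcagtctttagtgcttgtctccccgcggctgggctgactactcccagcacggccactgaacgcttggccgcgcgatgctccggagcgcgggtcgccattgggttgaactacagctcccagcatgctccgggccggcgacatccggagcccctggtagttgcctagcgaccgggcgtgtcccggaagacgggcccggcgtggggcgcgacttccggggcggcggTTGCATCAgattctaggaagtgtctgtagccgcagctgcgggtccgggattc
MARS1 promoter (chr12:57487818-57488117, plus strand, GRCh38.p14): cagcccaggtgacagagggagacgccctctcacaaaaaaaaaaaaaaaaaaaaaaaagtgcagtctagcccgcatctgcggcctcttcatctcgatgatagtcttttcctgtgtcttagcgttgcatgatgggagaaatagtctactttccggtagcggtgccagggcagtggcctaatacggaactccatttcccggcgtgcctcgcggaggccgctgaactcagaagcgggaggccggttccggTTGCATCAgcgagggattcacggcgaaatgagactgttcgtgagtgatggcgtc
AARS1 promoter (chr16:70289457-70289756, minus strand, GRCh38.p14): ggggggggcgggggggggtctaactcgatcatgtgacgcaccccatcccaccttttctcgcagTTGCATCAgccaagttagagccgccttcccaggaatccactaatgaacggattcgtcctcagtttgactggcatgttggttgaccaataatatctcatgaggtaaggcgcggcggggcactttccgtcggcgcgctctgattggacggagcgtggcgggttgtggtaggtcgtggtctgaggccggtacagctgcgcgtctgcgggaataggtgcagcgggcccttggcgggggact
GARS1 promoter (chr7:30594628-30594927, plus strand, GRCh38.p14): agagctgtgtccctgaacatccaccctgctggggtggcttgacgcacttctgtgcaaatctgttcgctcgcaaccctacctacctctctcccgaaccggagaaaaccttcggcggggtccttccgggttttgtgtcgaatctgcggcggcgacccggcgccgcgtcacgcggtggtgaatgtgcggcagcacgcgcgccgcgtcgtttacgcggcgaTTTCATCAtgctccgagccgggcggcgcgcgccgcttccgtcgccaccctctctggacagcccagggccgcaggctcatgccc
WARS1 promoter (chr14:100376278-100376577, minus strand, GRCh38.p14): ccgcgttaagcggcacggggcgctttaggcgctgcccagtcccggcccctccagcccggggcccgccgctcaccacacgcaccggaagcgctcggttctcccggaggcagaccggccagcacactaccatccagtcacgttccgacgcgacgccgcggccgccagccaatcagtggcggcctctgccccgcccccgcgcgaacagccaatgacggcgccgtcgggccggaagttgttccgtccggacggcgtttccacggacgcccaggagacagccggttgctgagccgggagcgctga
FARSA promoter (chr19:12933662-12933961, minus strand, GRCh38.p14): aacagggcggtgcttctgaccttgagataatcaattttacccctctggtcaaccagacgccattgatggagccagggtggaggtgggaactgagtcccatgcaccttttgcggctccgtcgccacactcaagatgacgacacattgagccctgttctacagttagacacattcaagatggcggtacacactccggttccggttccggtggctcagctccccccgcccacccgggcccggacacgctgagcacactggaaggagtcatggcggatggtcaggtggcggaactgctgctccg
MARS2 promoter (chr2:197705119-197705418, plus strand, GRCh38.p14): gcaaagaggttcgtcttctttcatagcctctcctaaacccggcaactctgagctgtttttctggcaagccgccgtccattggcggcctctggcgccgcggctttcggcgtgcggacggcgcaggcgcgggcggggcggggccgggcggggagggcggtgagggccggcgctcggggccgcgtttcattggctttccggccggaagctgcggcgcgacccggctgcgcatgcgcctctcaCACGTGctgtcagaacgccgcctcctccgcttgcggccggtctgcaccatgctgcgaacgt

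Counted from 0 at the start site, with negative positions upstream, the first base of the match lay at -2 in CARS1, -4 in MARS1, -187 in AARS1 and -33 in GARS1 at the second of its start sites. It lay at -13 in IARS1, 14 in NARS1 and 2 in TARS1, so that 5 of the 7 matches fell within 15 bases of a start site. The exact form was TGATGCAA in 6 of the 7, and GARS1 held TGATGAAA. The mitochondrial match was TGATGGAA at -197 in YARS2. The E-box lay at -11 in MARS2, -15 in EARS2 at the first of its start sites, -3 in CARS2 and -186 in IARS1. A match describes these letters and shows no binding, and no factor binding was measured.

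Total counts were 58397190 to 79172389 per library, so that 3 counts correspond to between 0.0366 and 0.0548 CPM (counts scaled to library size and composition), the unit of all levels below. The level of FLT3 went against the label of 1 library. FLT3 was at 39.2 to 43.3 CPM in the OCI-AML3 libraries, at 171 and 169 CPM in treated FLT3-ITD cells and at 178 CPM in replicate 1 and 203 CPM in replicate 3 of the FLT3-ITD controls, but at 53.4 CPM in the library labelled replicate 2 of the OCI-AML3-FLT3-ITD controls. Across genes, log2 CPM of that library correlated at r = 0.957 and 0.960 with the other OCI-AML3-FLT3-ITD controls and at 0.979 to 0.984 with the OCI-AML3 controls, as a description. It held 8.85% of counts on mitochondrially encoded genes, against 4.48% to 7.54% in the other 10 libraries. Counts of called genes and class medians that use this library, and most values of single genes, are given both with and without it. Counts of separate ranges and of pairs for the same amino acid are given only with it. Myeloid markers, 7 of 7 of which exceeded 3 counts in at least 1 library of each group, summed to 896 to 997 CPM in OCI-AML3 controls, 314 to 344 CPM with FHD-286, 749 to 831 CPM in FLT3-ITD controls and 161 to 195 CPM with FHD-286. Lymphoid and erythroid markers summed to 0.146 to 1.52 CPM in every library. Stromal and epithelial markers summed to 28.5 to 31.1 CPM in OCI-AML3 controls, 24.4 to 27.4 CPM with FHD-286, 10.4 to 29.2 CPM in FLT3-ITD controls and 4.80 to 4.81 CPM with FHD-286, and nearly all of this was PECAM1, an adhesion molecule that blood cells also express. PECAM1 was at 29.1 CPM in the library labelled replicate 2 of the OCI-AML3-FLT3-ITD controls and at 10.9 and 10.1 CPM in the other FLT3-ITD controls. In bulk libraries, fewer cells of a type and less RNA per cell cannot be told apart.

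Cytosolic synthetase transcripts were the more abundant class. Per kilobase of exon, the median level in OCI-AML3 controls was 49.4 CPM for the 19 cytosolic genes, from 5.18 (CARS1) to 122 (VARS1), and 10.9 CPM for the 16 mitochondrial genes, from 0.142 (SARS2) to 73.9 (IARS2). In 16 of the 17 pairs of enzymes for the same amino acid the cytosolic gene had the higher level per kilobase, from 1.03 times for CARS1 over CARS2 to 18.4 times for FARSA over FARS2, leaving out SARS2. IARS1 stood at 0.669 times IARS2. Exon length here merges the exons of all annotated transcripts, and levels per kilobase depend on it. It was 7401 bases for IARS1 and 4165 bases for IARS2. Before this scaling IARS1, at 358, 360 and 379 CPM in OCI-AML3 controls, was above IARS2, at 312, 305 and 307 CPM. SARS2, the mitochondrial serine enzyme, had only 20 to 60 counts per library, and 57.0% of its exon length overlaps MRPS12 or AC011455.2 in GENCODE 29, so its counts may be split or lost by the counting and its values are uncertain.

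The summed level of the cytosolic genes was lower with FHD-286 in OCI-AML3 cells. It was 5512, 5376.5 and 5954 CPM in OCI-AML3 controls and 3868, 3869 and 3845 CPM with FHD-286. In the FLT3-ITD controls it was 8592, 5136 and 8397 CPM in replicates 1, 2 and 3, and with FHD-286 it was 5748 and 5467 CPM. Both treated FLT3-ITD libraries were thus below control replicates 1 and 3 and above the library labelled replicate 2. The FLT3-ITD controls other than the library labelled replicate 2 were above every other library, and treated FLT3-ITD cells fell in the range of the OCI-AML3 controls. The mitochondrial genes spanned a narrower range: 1003, 983 and 1056 CPM in OCI-AML3 controls, 801, 801 and 795 CPM with FHD-286, 977, 775 and 975 CPM in FLT3-ITD controls, and 830 and 836 CPM with FHD-286.

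**Figure D1:**
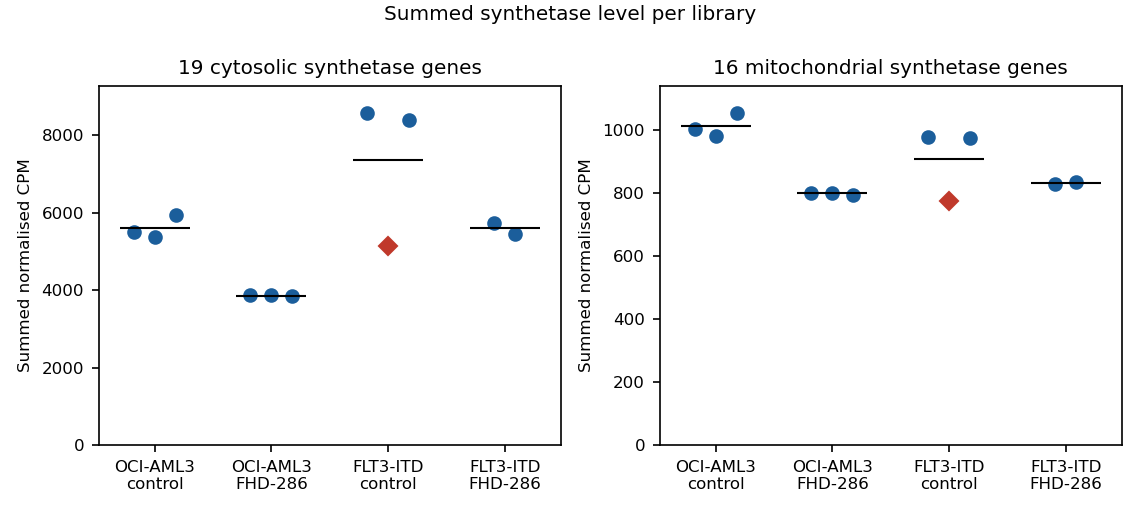
Each point is 1 library, the y axes give summed normalised CPM of the 19 cytosolic and the 16 mitochondrial synthetase genes, bars are group means, and the diamond is the library labelled replicate 2 of the OCI-AML3-FLT3-ITD controls. The cytosolic sums of the other OCI-AML3-FLT3-ITD controls, 8592 and 8397 CPM, lie above all others, and the diamond lies at 5136 CPM.

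FHD-286 lowered synthetase transcripts of both classes in OCI-AML3 cells. Of the 35 genes, 25 fell and 0 rose at an adjusted p under 0.05 (edgeR's quasi-likelihood test, adjusted over 18908 genes), where 41.3% of all genes were called, 19.8% higher and 21.5% lower. The falls comprised 13 of 19 cytosolic genes, with a median log2 fold change over the class of -0.58, and 12 of 16 mitochondrial genes, with a median of -0.46, against a median of 0.01 over all genes tested. Among the catalytic subunits of the multi-synthetase complex, 6 of 7 fell, with QARS1 at -0.11 the member not called. Of the 13 cytosolic genes commonly listed as ATF4 targets 9 fell (median -0.57), and of the other 6 cytosolic genes 4 fell (median -0.68). In class I enzymes 14 of 19 fell and in class II enzymes 11 of 16, so that both structural classes took part. Ranges of treated and control libraries did not overlap, with the treated libraries lower, for 18 of 19 cytosolic and 15 of 16 mitochondrial genes, against 33.2% of all genes (66% in either direction and 32.8% with treated libraries higher).

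The largest fall with FHD-286 was that of WARS1, the cytosolic tryptophan enzyme and a known interferon-inducible gene (chr14:100333788-100376805, minus strand, GRCh38). It was at 231, 214 and 248 CPM in OCI-AML3 controls and at 74.7, 78.9 and 72.2 CPM with FHD-286. WARS1 fell by 67.4% (log2 fold change -1.62 ± 0.26 SE, adjusted p = 0.000636). The control and treated libraries were far apart, and no other synthetase fell by more than 0.92 on the log2 scale. Of its exon length 10.6% overlaps another gene.

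FARSA and FARSB, which form the cytosolic phenylalanine enzyme, fell by similar amounts. FARSA was at 256, 247 and 301 CPM in OCI-AML3 controls and at 147, 140 and 138 CPM with FHD-286 (-0.92 ± 0.12, adjusted p = 0.000146). FARSB was at 137, 130 and 141 CPM and at 74.6, 74.7 and 73.9 CPM with FHD-286 (-0.87 ± 0.09, adjusted p = 2.53e-05). For both subunits every treated library was below every control. KARS1, the lysine enzyme, was at 335, 309 and 363 CPM in OCI-AML3 controls and at 201, 196 and 198 CPM with FHD-286 (-0.76 ± 0.09, adjusted p = 8.53e-05). VARS1, the valine enzyme, was at 692, 710 and 822 CPM and at 472, 470 and 468 CPM with FHD-286 (-0.66 ± 0.15, adjusted p = 0.00586).

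LARS1, MARS1 and AARS1, the cytosolic enzymes for leucine, methionine and alanine, fell by nearly the same amount. LARS1 was at 298, 300 and 308 CPM in OCI-AML3 controls and at 194, 201 and 194 CPM with FHD-286 (-0.62 ± 0.11, adjusted p = 0.00116). MARS1 was at 190, 188 and 212 CPM and at 129, 128 and 125 CPM with FHD-286 (-0.62 ± 0.22, adjusted p = 0.045). AARS1 was at 260, 256 and 292 CPM and at 173, 173 and 182 CPM with FHD-286 (-0.62 ± 0.16, adjusted p = 0.0104). Control and treated ranges were separate for all of them, and MARS1 had the largest error, which was 0.06 in the fit without the library labelled replicate 2 of the OCI-AML3-FLT3-ITD controls. The call of MARS1 was lost when any 1 OCI-AML3 library was left out (adjusted p from 0.0775 to 0.127) or either treated FLT3-ITD library (0.0679 and 0.068). RARS1, YARS1, TARS1, IARS1 and EPRS1 also fell, between -0.61 and -0.35. Of these, IARS1 and EPRS1 lost their calls without any 1 OCI-AML3 library, EPRS1 also without either treated FLT3-ITD library, and YARS1 without OCI-AML3 control replicate 3 or FHD-286 replicate 3. CARS1 (-0.07), QARS1 (-0.11), SARS1 (-0.16), HARS1 (-0.19), NARS1 (-0.21) and GARS1 (-0.41) were not called.

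Among mitochondrial enzymes EARS2, which charges glutamate, had the largest log2 change in OCI-AML3 cells. It was at 37.5, 35.4 and 41.6 CPM in controls and at 21.0, 20.2 and 20.2 CPM with FHD-286 (-0.90 ± 0.31, adjusted p = 0.0398). Its call was lost when any 1 OCI-AML3 library was left out (adjusted p from 0.0674 to 0.11) or either treated FLT3-ITD library (0.0605 and 0.0606). NARS2, the asparagine enzyme, was at 32.6, 31.3 and 31.1 CPM in controls and at 19.6, 20.3 and 17.9 CPM with FHD-286 (-0.72 ± 0.09, adjusted p = 8.52e-05). PARS2, the proline enzyme, was at 24.4, 22.0 and 25.8 CPM and at 14.9, 14.6 and 14.6 CPM with FHD-286 (-0.71 ± 0.10, adjusted p = 0.000204).

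YARS2 and WARS2, the mitochondrial enzymes for tyrosine and tryptophan, fell alongside. YARS2 was at 42.8, 38.5 and 44.7 CPM in OCI-AML3 controls and at 25.4, 26.0 and 25.7 CPM with FHD-286 (-0.71 ± 0.09, adjusted p = 9.23e-05). WARS2 was at 30.6, 30.4 and 30.5 CPM and at 19.7, 18.7 and 20.2 CPM with FHD-286 (-0.64 ± 0.08, adjusted p = 0.00011). None of these treated libraries reached the level of a control. LARS2, TARS2, AARS2, HARS2, FARS2, CARS2 and MARS2 fell between -0.56 and -0.26. AARS2 lost its call without OCI-AML3 control replicate 3 or any 1 treated OCI-AML3 library. IARS2 (-0.05), RARS2 (-0.17), VARS2 (-0.36) and SARS2 (0.30) were not called. The class medians of -0.58 and -0.46 differed little beside the spread within each class, and in 6 of 17 pairs for the same amino acid the cytosolic enzyme had the higher log2 fold change.

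The count of falls in OCI-AML3 ranged from 18 to 31 when 1 library was left out. The share of all genes called is given here only for the upper end. Without the library labelled replicate 2 of the OCI-AML3-FLT3-ITD controls, which entered only through the shared spread, 31 of 35 genes fell (17 cytosolic and 14 mitochondrial), where 58.8% of all genes were called and 29.8% lower. When libraries were scaled by their totals alone, the median of all genes moved from 0.01 to 0.17, the class medians moved to -0.42 and -0.31, and the falls then numbered 17.

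FLT3-ITD cells showed the same direction with fewer calls. With all libraries 12 of 35 synthetases fell with FHD-286 and 0 rose, 6 in each class, where 30.5% of all genes were called, 15.6% higher and 14.9% lower. The median log2 fold change was -0.36 for cytosolic and -0.26 for mitochondrial genes, against -0.02 for all genes tested. The count depended on single libraries. Without the library labelled replicate 2 of the OCI-AML3-FLT3-ITD controls, 31 genes fell, 18 cytosolic with a class median of -0.55 and 13 mitochondrial with a class median of -0.31, where 49% of all genes were called and 24.2% lower. Fewer than these 12 genes fell with treated replicate 1 or 2 of FLT3-ITD left out, which leaves 1 treated library. The share of all genes called in those fits is not given here. All 12 genes that fell in FLT3-ITD cells were among the 25 that fell in OCI-AML3, which is 48% of the latter. These comparisons share no library, but 1 fit with a shared spread per gene gave both, so their calls are not independent. The overlap over all genes was not computed. Treated libraries were below all controls for 6 cytosolic and 8 mitochondrial genes, against 22.9% of all genes, and above all controls for 1 mitochondrial gene, IARS2, against 26.1%. These ranges include the library labelled control replicate 2, and the counts were not made without it.

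**Figure D2:**
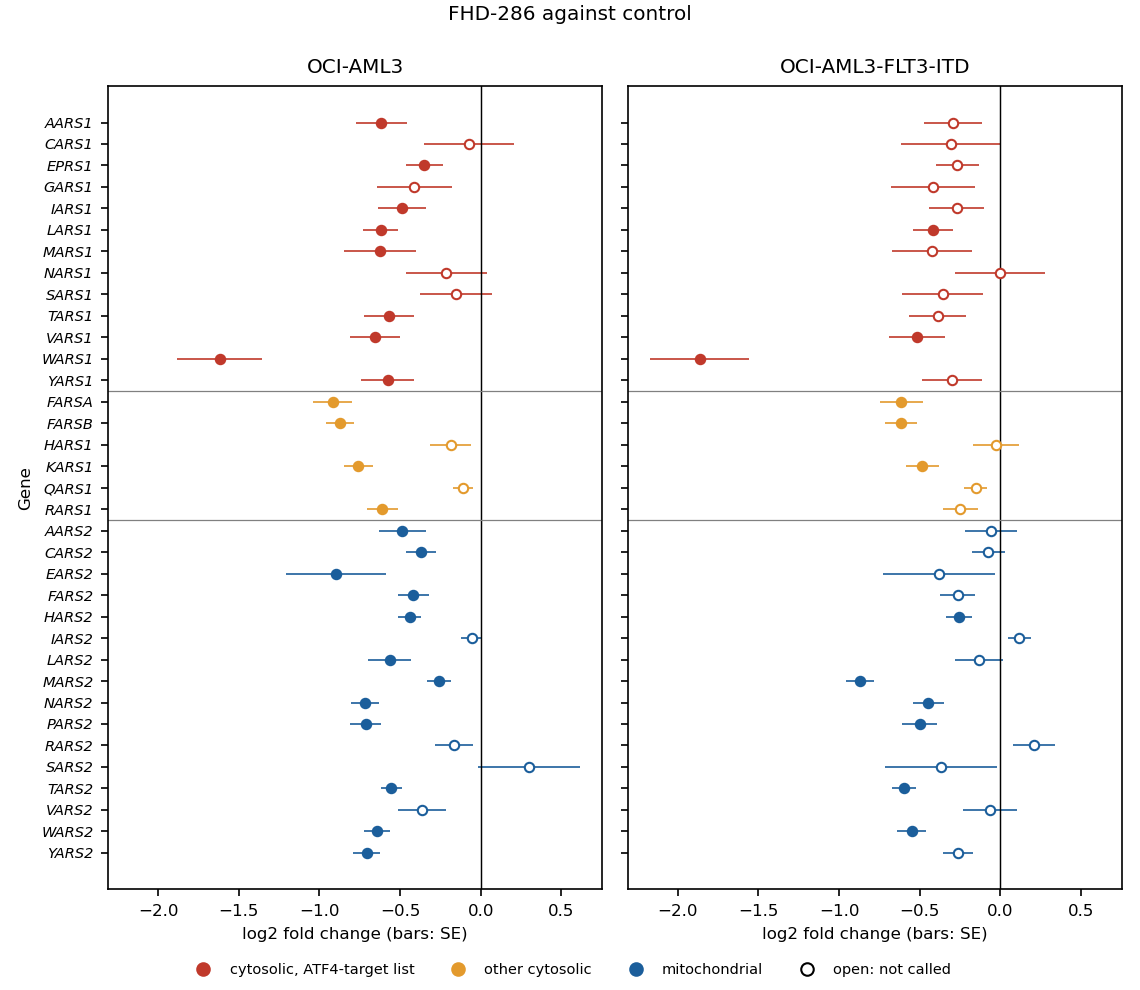
Points are log2 fold changes of FHD-286 against control for each synthetase gene in each line, with standard errors, and filled points passed an adjusted p of 0.05 with all 11 libraries. Nearly all points lie left of 0 in both lines, WARS1 lies farthest left at -1.62 and -1.86, and 25 points are filled for OCI-AML3 against 12 for OCI-AML3-FLT3-ITD.

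WARS1 again fell most. The FLT3-ITD controls, in the order of their replicate numbers, held 595, 240 and 555 CPM of WARS1, and the treated libraries 134 and 120 CPM (-1.86 ± 0.31, adjusted p = 0.0012). Every treated library was below every control, and the library labelled control replicate 2 stood near the OCI-AML3 controls. Without it the fall was 2.18 on the log2 scale (adjusted p = 2.13e-14).

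FARSA was at 223, 157 and 193 CPM in FLT3-ITD controls and at 127 and 123 CPM with FHD-286 (-0.61 ± 0.13, adjusted p = 0.00614). FARSB was at 126, 98.8 and 112 CPM and at 76.7 and 69.6 CPM with FHD-286 (-0.62 ± 0.10, adjusted p = 0.000981). The phenylalanine subunits thus fell in both lines, and their falls without the library labelled control replicate 2 were 0.74 and 0.70 on the log2 scale. KARS1 was at 296, 240 and 264 CPM and at 201 and 180 CPM with FHD-286 (-0.48 ± 0.10, adjusted p = 0.00502, and -0.55 without that library). LARS1 was at 403, 302 and 427 CPM and at 294 and 272 CPM with FHD-286 (-0.42 ± 0.12, adjusted p = 0.0273, and -0.55 without that library). VARS1 was at 705, 446 and 712 CPM and at 419 and 448 CPM with FHD-286 (-0.52 ± 0.17, adjusted p = 0.0443). For VARS1 the upper treated library lay within the range of the controls through the library labelled control replicate 2. Without that library VARS1 changed by -0.71 (adjusted p = 2.97e-07). Its call was lost without any other 1 library, with adjusted p from 0.0509 to 0.225.

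Leaving out either treated FLT3-ITD library ended the calls of FARSA (adjusted p = 0.0508 and 0.0574) and LARS1 (0.096 and 0.183), and leaving out replicate 2 ended that of KARS1 (0.0681). LARS1 also lost its call without FLT3-ITD control replicate 1 or 3 (adjusted p = 0.061 and 0.0662). FARSB and WARS1 kept theirs under every alternative run.

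MARS1 and AARS1, which fell in OCI-AML3, were not called in FLT3-ITD cells with all libraries. MARS1 was at 465, 216 and 449 CPM in FLT3-ITD controls and at 281 and 281 CPM with FHD-286 (-0.42 ± 0.25, adjusted p = 0.23). AARS1 was at 557, 334 and 549 CPM and at 386 and 398 CPM with FHD-286 (-0.29 ± 0.18, adjusted p = 0.249). In each case the treated libraries lay between the library labelled control replicate 2 and the other controls. Without that library MARS1 changed by -0.70 (adjusted p = 6.7e-08) and AARS1 by -0.50 (adjusted p = 1.09e-05).

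Of the mitochondrial enzymes, MARS2, TARS2, WARS2, PARS2, NARS2 and HARS2 fell in FLT3-ITD cells. WARS2 was at 27.7, 24.0 and 25.6 CPM in controls and at 18.4 and 16.8 CPM with FHD-286 (-0.55 ± 0.09, adjusted p = 0.00118). PARS2 was at 20.8, 16.9 and 19 CPM and at 13.4 and 13.3 CPM with FHD-286 (-0.50 ± 0.11, adjusted p = 0.00615). NARS2 was at 25.7, 22.0 and 25.2 CPM and at 18.2 and 17.4 CPM with FHD-286 (-0.45 ± 0.10, adjusted p = 0.00577). Treated libraries were below all controls for each of these, and without the library labelled control replicate 2 the changes were -0.60 for WARS2, -0.57 for PARS2, -0.51 for NARS2, -0.30 for HARS2, -0.59 for TARS2 and -0.81 for MARS2. PARS2 lost its call without treated FLT3-ITD replicate 1 or 2 (adjusted p = 0.0519 and 0.0513), NARS2 without replicate 2 (0.0597), and HARS2 without any of 8 of the 11 libraries (0.0524 to 0.245). EARS2, at 62.4, 20.5 and 59.1 CPM in controls and 37.6 and 35.2 CPM with FHD-286, was not called with all libraries (-0.38 ± 0.35, adjusted p = 0.448). EARS2 was lower in the library labelled control replicate 2 than in any other FLT3-ITD library, and without that library it changed by -0.74 (adjusted p = 1.59e-07). YARS2 was at 31.8, 26.6 and 28.6 CPM and at 24.9 and 23.5 CPM with FHD-286 (-0.26 ± 0.10, adjusted p = 0.0619), and without that library it changed by -0.32 (adjusted p = 0.00304).

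MARS2, the mitochondrial methionine enzyme (chr2:197705369-197708387, plus strand, GRCh38, a gene whose annotated exons fill its whole length), was the 1 of 35 synthetases called for a difference between the lines in the response to FHD-286 (2.86%, against 3.36% of all genes, 1.98% higher and 1.38% lower), so the count is no larger than the background. MARS2 was at 59.4, 56.9 and 62.8 CPM in OCI-AML3 controls and at 49.5, 51.5 and 48.8 CPM with FHD-286. In FLT3-ITD cells it was at 36.5, 41.4 and 36.7 CPM in controls and at 20.1 and 21.7 CPM with FHD-286. The groups followed each other with no overlap, and treated FLT3-ITD cells were lowest. The fall was 0.26 ± 0.07 on the log2 scale in OCI-AML3 (adjusted p = 0.0178) and 0.87 ± 0.09 in FLT3-ITD cells (adjusted p = 4.72e-05). The difference between the effects was -0.61 ± 0.11 (adjusted p = 0.018). It was -0.55 without the library labelled replicate 2 of the OCI-AML3-FLT3-ITD controls (adjusted p = 0.000368), a library in which MARS2 stood above the other FLT3-ITD controls. The call was lost when OCI-AML3 control replicate 1 or 2 (adjusted p = 0.0646 and 0.0574), OCI-AML3 FHD-286 replicate 1, 2 or 3 (0.06, 0.067 and 0.0519) or either treated FLT3-ITD library (0.113 and 0.0526) was left out, with values from -0.68 to -0.55. The smaller fall in OCI-AML3 also lost its call without OCI-AML3 control replicate 3 or FHD-286 replicate 1 or 3 (adjusted p = 0.0689, 0.0616 and 0.116) and with library totals (-0.10, adjusted p = 0.313).

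Without the library labelled replicate 2 of the OCI-AML3-FLT3-ITD controls, 6 of 35 synthetases were called for this difference, a share close to the 17% of all genes called (9.63% higher and 7.39% lower). They were CARS1 (-0.56), WARS1 (-0.56), SARS1 (-0.48), GARS1 (-0.30), MARS2 (-0.55) and YARS2 (0.39). With all libraries the differences were -0.23 for CARS1, -0.25 for WARS1, -0.20 for SARS1, -0.01 for GARS1 and 0.45 for YARS2, none of them called.

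**Figure D3:**
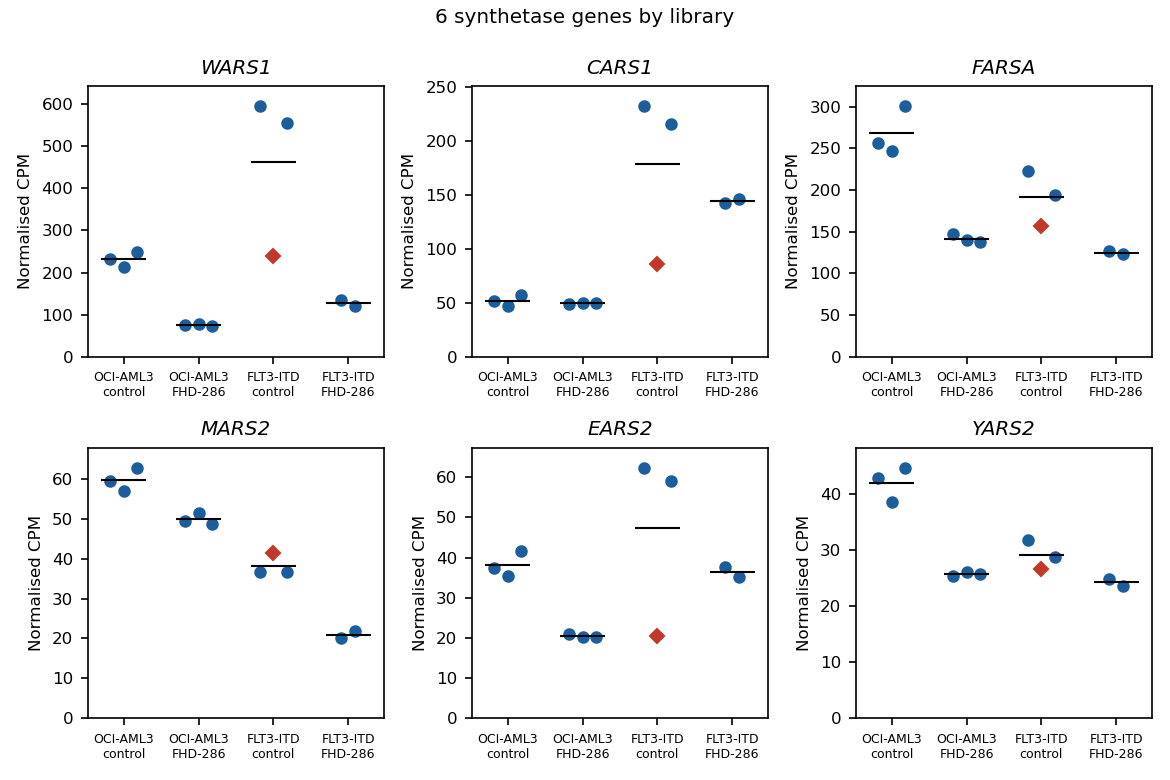
The y axes give normalised CPM of 6 synthetase genes, each point is 1 library, bars are group means, and the diamond is the library labelled replicate 2 of the OCI-AML3-FLT3-ITD controls. WARS1 and CARS1 are highest in the other OCI-AML3-FLT3-ITD controls, whereas MARS2 steps down over the groups to 20.1 and 21.7 CPM.

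Between the untreated lines the classes parted. Of the 19 cytosolic genes 10 were higher and 4 lower in FLT3-ITD cells than in OCI-AML3 cells (median 0.49), whereas of the 16 mitochondrial genes 0 were higher and 9 lower (median -0.26). Over all genes tested 28% were called, 14.5% higher and 13.5% lower, with a median of 0.01. In 14 of 17 pairs for the same amino acid the cytosolic enzyme had the higher log2 difference, a count made only with all libraries. Without the library labelled replicate 2 of the OCI-AML3-FLT3-ITD controls, 12 cytosolic genes were higher and 4 lower (median 0.63), and 4 mitochondrial genes were higher and 9 lower (median -0.18), where 49.4% of all genes were called, 24.1% higher and 25.4% lower. The 4 mitochondrial genes higher only in that fit were AARS2 (0.50), EARS2 (0.67), RARS2 (0.34) and VARS2 (0.25). The count of 23 genes called fell to 12, 14 and 10 without OCI-AML3 control replicate 1, 2 or 3, and to 14 without OCI-AML3-FLT3-ITD control replicate 3, and the higher cytosolic genes were then 5, 5, 6 and 5. In the fit of only the groups compared 5 were called. The share of all genes called in these smaller fits is not given here, so a loss particular to the synthetases cannot be told from a general one. Ranges did not overlap for 6 cytosolic genes with FLT3-ITD higher, against 17.1% of all genes, and for 4 cytosolic and 11 mitochondrial genes with FLT3-ITD lower, against 19.8% (36.9% in either direction). These ranges include the library labelled control replicate 2, and the counts were not made without it. With library totals the median of all genes moved from 0.01 to 0.11.

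**Figure D4:**
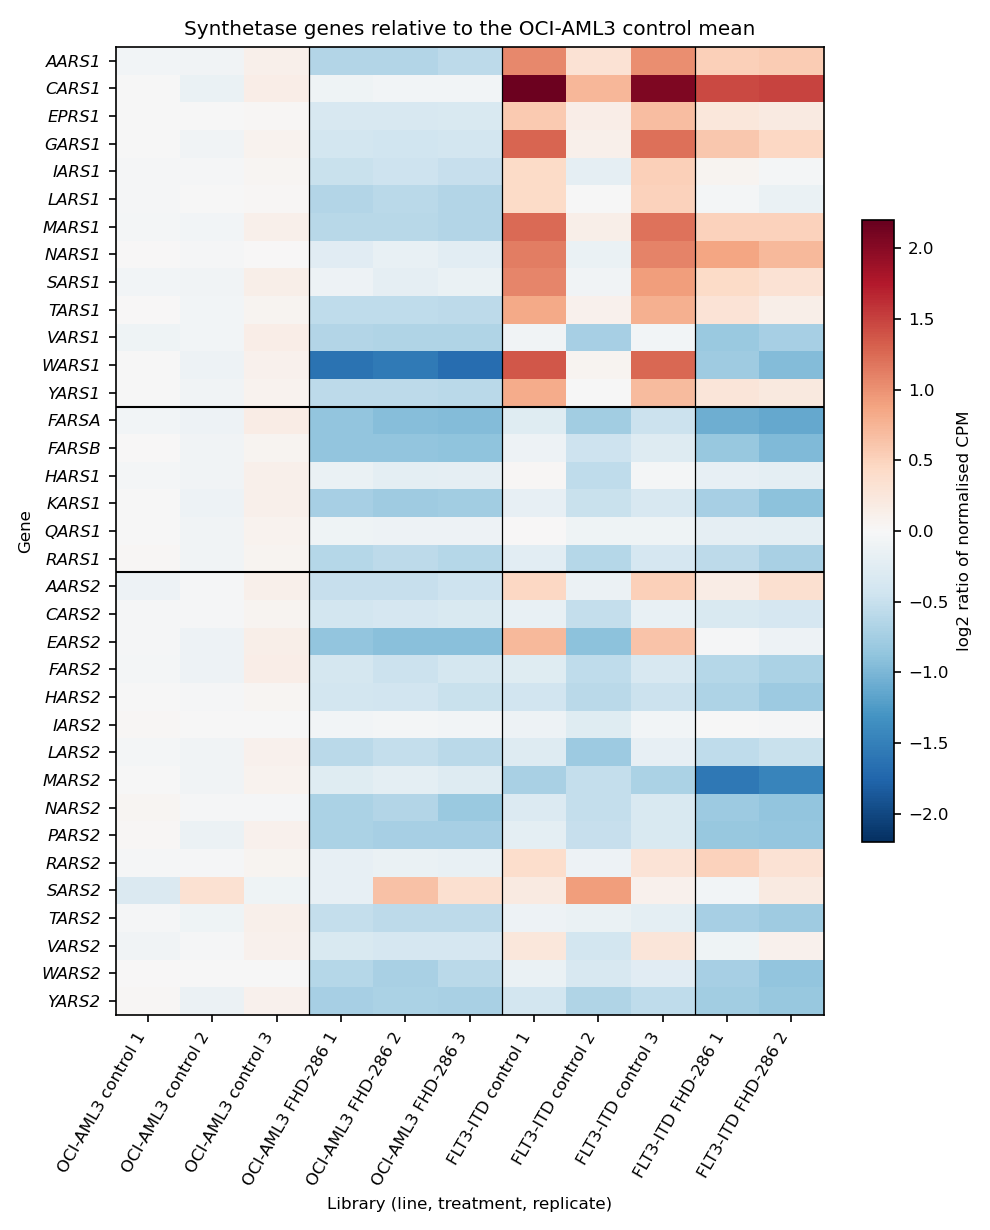
Rows are the 35 synthetase genes (ATF4-listed cytosolic, other cytosolic and mitochondrial, split by lines), columns are the 11 libraries (FLT3-ITD stands for OCI-AML3-FLT3-ITD), and colour gives the log2 ratio of CPM to the OCI-AML3 control mean. The ATF4-listed cytosolic genes are mostly red in replicates 1 and 3 of the OCI-AML3-FLT3-ITD controls, most other genes are pale or blue there, and the library labelled control replicate 2 is paler than both in the ATF4-listed genes.

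The cytosolic genes divided by the list of known ATF4 targets, which was drawn up with earlier results of these data known. All 10 higher cytosolic genes were among the 13 listed (median 0.72; without the library labelled replicate 2 of the OCI-AML3-FLT3-ITD controls, 12 higher and a median of 1.00). Of the 6 others, 0 were higher and 4 lower (median -0.31, and 4 lower without that library). VARS1 was the listed gene below 0 (-0.26, not called), and IARS1 (0.28) and LARS1 (0.32) were not called with all libraries.

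CARS1, the cytosolic cysteine enzyme (chr11:3000922-3057613, minus strand, GRCh38), differed most. It was at 51.6, 47.0 and 57.3 CPM in OCI-AML3 controls and at 232, 86.2 and 216 CPM in the FLT3-ITD controls, in the order of their numbers (3.42-fold, 1.78 ± 0.28, adjusted p = 0.00209). All FLT3-ITD controls were above all OCI-AML3 controls, and the library labelled replicate 2 lay nearest to them. Without it the log2 difference was 2.11 (adjusted p = 1.26e-15). AARS1, whose control values are given above, was 1.78-fold higher (0.83 ± 0.16, adjusted p = 0.00467, and 1.04 without that library), with no overlap between the lines. MARS1 was higher by 0.94 ± 0.22 on the log2 scale (adjusted p = 0.0121, and 1.22 without that library), and 13.3% of its exon length overlaps DDIT3 or ARHGAP9, of which DDIT3 was itself higher in FLT3-ITD cells.

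GARS1, EPRS1 and TARS1, the enzymes for glycine, for glutamate with proline, and for threonine, were also higher. GARS1 was at 292, 277 and 311 CPM in OCI-AML3 controls and at 709, 316 and 676 CPM in FLT3-ITD controls (0.95 ± 0.23, adjusted p = 0.0136). EPRS1 was at 572, 572 and 585 CPM and at 859, 635 and 927 CPM (0.49 ± 0.12, adjusted p = 0.0123). TARS1 was at 607, 578 and 628 CPM and at 1071, 649 and 1045 CPM (0.61 ± 0.16, adjusted p = 0.0169). Their lines did not overlap, though in each case the library labelled replicate 2 lay within a short distance of the OCI-AML3 controls. Without it the log2 differences were 1.24 for GARS1, 0.63 for EPRS1 and 0.81 for TARS1. WARS1 (1.00), NARS1 (0.79), SARS1 (0.72) and YARS1 (0.54) completed the higher genes, and their ranges overlapped the OCI-AML3 controls through the library labelled replicate 2, without which they differed by 1.31, 1.10, 1.00 and 0.76. The call of WARS1 was lost without OCI-AML3 control replicate 1, 2 or 3 (adjusted p = 0.0559, 0.0581 and 0.0507) or FLT3-ITD control replicate 3 (0.0597). Those of NARS1, SARS1 and YARS1 were lost without any 1 of the same libraries. They were also lost without FLT3-ITD control replicate 1, OCI-AML3 FHD-286 replicate 1 or 2, or either treated FLT3-ITD library. That of TARS1 was lost without OCI-AML3 control replicate 1 or 2 or FLT3-ITD control replicate 3. Under every alternative run, AARS1 and CARS1 were the cytosolic genes that stayed called.

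The genes that were lower in untreated FLT3-ITD cells differed by less. HARS2, the mitochondrial histidine enzyme, was at 42.6, 42.2 and 44.2 CPM in OCI-AML3 controls and at 32.2, 28.6 and 31.1 CPM in FLT3-ITD controls (-0.49 ± 0.07, adjusted p = 0.00144). MARS2 was lower by 36.0% (-0.64 ± 0.07, adjusted p = 0.000494) and YARS2 by -0.53 ± 0.09 on the log2 scale (adjusted p = 0.00209). For these 3 genes all FLT3-ITD controls, the library labelled replicate 2 included, were below all OCI-AML3 controls, and their calls stayed under every alternative run. Without that library the differences were -0.44 for HARS2, -0.70 for MARS2 and -0.48 for YARS2, and they were -0.32 for NARS2, -0.30 for RARS1 and -0.36 for FARSA. NARS2 was lower by -0.38 ± 0.09 (adjusted p = 0.00909). RARS1, the cytosolic arginine enzyme, was at 155, 144 and 158 CPM in OCI-AML3 controls and at 130, 98.3 and 118 CPM in FLT3-ITD controls (-0.40 ± 0.10, adjusted p = 0.0123). FARSA was lower by -0.49 ± 0.12 (adjusted p = 0.013). KARS1 (-0.33), FARSB (-0.28), FARS2 (-0.39), LARS2 (-0.39), PARS2 (-0.35), CARS2 (-0.28) and WARS2 (-0.24) were lower too. Without OCI-AML3 control replicate 3, the 9 lower genes other than MARS2, HARS2, YARS2 and NARS2 lost their calls. HARS2 and HARS1 lie head to head on chromosome 5 and share 437 bases, and 15.8% of HARS2 exon length overlaps another gene, so their counts may be split.

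Among treated cells the cytosolic genes were again mostly higher in FLT3-ITD cells, and the mitochondrial genes went both ways, from -1.26 (MARS2) to 0.83 (EARS2, not called). In FHD-286-treated FLT3-ITD cells 10 of 19 cytosolic genes were higher than in treated OCI-AML3 cells and 0 lower (median 0.52), and of 16 mitochondrial genes 2 were higher and 2 lower (median -0.10). Ranges did not overlap for 12 cytosolic genes with FLT3-ITD higher and 3 lower and for 5 mitochondrial genes higher and 7 lower, against 33.3% and 32.9% of all genes (66.2% in either direction). Over all genes tested 26% were called, 14.3% higher and 11.7% lower. All 10 higher cytosolic genes were among the 13 ATF4-listed (median 0.79), and 0 of the 6 others were called (median -0.05). The log2 differences of these 6 ran from -0.18 to -0.01, which does not show that they were equal between lines. The untreated and treated comparisons share no library, though 1 fit with a shared spread per gene gave both, so their calls are not independent. In both, 8 cytosolic genes were higher, 80% of each list, and this overlap was not computed over all genes. SARS1 and WARS1 were called only between controls, and IARS1 and LARS1 only between treated cells. Fewer than these 14 genes were called without treated FLT3-ITD replicate 1 or 2, which leaves 1 library in that group. The share of all genes called in those fits is not given here. Without the library labelled replicate 2 of the OCI-AML3-FLT3-ITD controls 20 synthetases were called, where 46.9% of all genes were called.

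**Figure D5:**
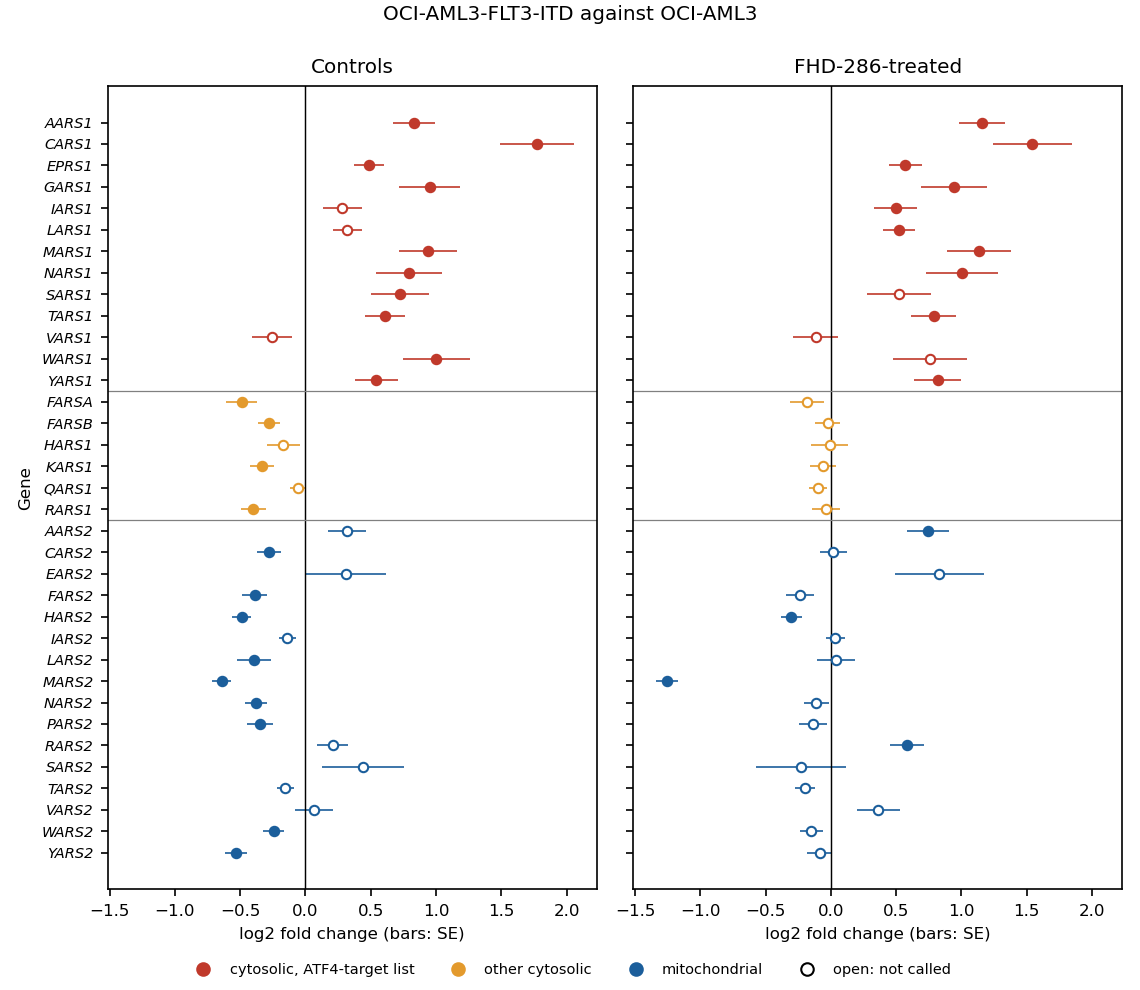
Points are log2 differences of OCI-AML3-FLT3-ITD from OCI-AML3 for each synthetase gene, with standard errors, between controls and between treated cells, coloured by class and filled where the adjusted p was under 0.05. The ATF4-listed cytosolic genes other than VARS1 lie right of 0 in both panels, and MARS2 lies farthest left at -0.64 and -1.26.

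AARS1 was at 173, 173 and 182 CPM in treated OCI-AML3 cells and at 386 and 398 CPM in treated FLT3-ITD cells (2.23-fold, 1.16 ± 0.18, adjusted p = 0.00134). CARS1 was at 48.6, 50 and 49.8 CPM and at 142 and 146 CPM (2.91-fold, 1.54 ± 0.30, adjusted p = 0.00512). MARS1 was higher by 1.14 ± 0.24 (adjusted p = 0.00761). Both treated FLT3-ITD libraries were above every OCI-AML3 library, treated or not, for these genes, as they were for 9 cytosolic genes in all (with EPRS1, GARS1, NARS1, SARS1, TARS1 and YARS1) and for AARS2 and RARS2. The share of all genes in this order was not computed, so how unusual that count is cannot be told. TARS1 was at 408, 410 and 405 CPM and at 748 and 661 CPM (0.79 ± 0.17, adjusted p = 0.00825). YARS1, the tyrosine enzyme, was at 199, 199 and 196 CPM and at 354 and 344 CPM (0.82 ± 0.18, adjusted p = 0.00886). Without treated FLT3-ITD replicate 1 the calls of MARS1, TARS1 and YARS1 were lost, and that of YARS1 also without replicate 2. Of the 10 higher cytosolic genes AARS1 and CARS1 stayed called under every alternative run.

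AARS2 and RARS2 were the mitochondrial genes that were higher in treated FLT3-ITD cells. AARS2, the alanine enzyme, was at 42.7, 42.4 and 44.2 CPM and at 67.4 and 77.1 CPM (0.75 ± 0.16, adjusted p = 0.00778), a call lost without treated FLT3-ITD replicate 2. RARS2, the arginine enzyme, differed by 0.58 (adjusted p = 0.00927), a call lost without replicate 1. MARS2 was lower by 58.1% (-1.26 ± 0.09, adjusted p = 3.9e-05) and stayed called under every alternative run. HARS2 was at 32.4, 32.0 and 30.7 CPM and at 26.7 and 24.6 CPM (-0.30 ± 0.08, adjusted p = 0.0201), a call lost without either treated FLT3-ITD library or OCI-AML3 FHD-286 replicate 1 or 2.

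Set beside the promoters, the 7 cytosolic genes with TGATGNAA differed between untreated lines by a median of 0.83 (0.28 to 1.78), and the 9 cytosolic genes with a promoter but without the element by a median of -0.17 (-0.49 to 1.00). These medians were 1.10 and -0.04 without the library labelled replicate 2 of the OCI-AML3-FLT3-ITD controls. Between treated lines the medians were 1.00 (0.50 to 1.54) and -0.02 (-0.18 to 0.76). WARS1, printed above without the element, had the 1.00 between controls, and SARS1 and EPRS1 were also higher without it in these windows. YARS2, the mitochondrial gene with the element, was lower between controls (-0.53). With FHD-286 in OCI-AML3 cells the genes with the element changed by a median of -0.49 and those without by -0.61. These are descriptions of 16 genes, and no test was made on them.

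Genes that act with the synthetases moved in part alongside them. Their counts stand against 21.5% of all genes called lower with FHD-286 in OCI-AML3 and 14.9% in FLT3-ITD cells, and each list holds few genes. In the fit without the library labelled replicate 2 of the OCI-AML3-FLT3-ITD controls these shares were 29.8% and 24.2%. The scaffolds AIMP1 (-0.42 and -0.40) and AIMP2 (-0.64 and -0.58) fell with FHD-286 in OCI-AML3 and FLT3-ITD cells, and EEF1E1 did not pass the test (-0.05 and 0.00). AIMP1 changed by -0.43 and AIMP2 by -0.75 in FLT3-ITD cells without the library labelled replicate 2 of the OCI-AML3-FLT3-ITD controls, and without treated FLT3-ITD replicate 2 both lost their calls there, AIMP2 also without replicate 1. Of the genes that finish mitochondrial charging, namely the amidotransferase subunits GATB, GATC and QRSL1 and the formyltransferase MTFMT, 4 of 4 fell in OCI-AML3 (-0.74 to -0.35) and 2 of 4 in FLT3-ITD cells, GATB (-0.40) and MTFMT (-0.49), whose calls were lost there without treated FLT3-ITD replicate 2. There, 3 of 4 fell without the library labelled control replicate 2. Between controls 3 of these 4 were lower in FLT3-ITD cells with and without that library, against 13.5% and 25.4% of all genes. XPOT, the tRNA exporter, fell in OCI-AML3 (-0.63) and was higher in FLT3-ITD cells between controls (0.52) and between treated cells (0.67). The call of XPOT between controls was lost without any 1 OCI-AML3 control or FLT3-ITD control replicate 1 or 3. Its call between treated cells was lost without treated FLT3-ITD replicate 1. Without the library labelled control replicate 2 its difference between controls was 0.71. TUFM, the mitochondrial elongation factor, fell in both lines (-0.74 and -0.61) and was lower in FLT3-ITD controls (-0.47, also without that library). Of the 4 mitochondrial elongation factors, 3 fell in OCI-AML3 and 1 in FLT3-ITD cells, or 3 without that library. Of the 5 measured genes of tRNA export and cytosolic elongation, 3 fell in each line, or 4 in each without that library, and EEF1B2 and EEF2 lost their calls in FLT3-ITD cells without either treated library. EEF1A1, which carries charged tRNA to the ribosome, was not called in either line (-0.09 and -0.06). EEF1G had 0 counts in every library, 99.9% of its exon length overlaps AP002990.1, and it was not tested.

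In tRNA editing, end repair and peptidyl-tRNA release 3 of 5 measured genes fell in OCI-AML3, led by DTD1 (-0.99), a deacylase that removes D-amino acids from tRNA, and 2 in FLT3-ITD cells, or 3 without the library labelled replicate 2 of the OCI-AML3-FLT3-ITD controls. In selenocysteine charging SEPSECS rose (0.48) and EEFSEC fell (-0.36) in OCI-AML3, the latter call being lost with library totals, with no filter and in 7 of the 11 fits that left out 1 library, and 0 of 4 genes were called in FLT3-ITD cells, with log2 changes from -0.24 to 0.07, or 2 of 4 lower without that library.

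Genes of the amino acid stress response were higher in FLT3-ITD cells, alongside the ATF4-listed synthetases. Of 9 regulators and targets, 8 were higher in untreated FLT3-ITD cells (median 1.93) and 7 in treated ones (median 1.65), and none was lower, where 14.5% and 14.3% of all genes were called higher. When the library labelled replicate 2 of the OCI-AML3-FLT3-ITD controls was left out, 8 were higher in each comparison, with medians of 2.27 and 1.65, where 24.1% and 24.2% of all genes were higher. ATF4 was at 376, 368 and 389 CPM in OCI-AML3 controls, 230, 217 and 224 CPM with FHD-286, 1082, 516 and 905 CPM in FLT3-ITD controls, and 710 and 697 CPM with FHD-286. FLT3-ITD libraries, treated or not, were above all OCI-AML3 libraries, and the differences were 1.14 ± 0.20 between controls (adjusted p = 0.00329, and 1.40 without the library just named) and 1.65 ± 0.22 between treated cells (adjusted p = 0.000671). CHAC1, a glutathione-degrading ATF4 target, differed by 4.04 (4.49 without that library) and 4.41. EIF2AK4, which encodes GCN2, was not called (-0.10 and -0.07).

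With FHD-286 the stress genes did not move as 1 group. In OCI-AML3, ATF4 (-0.76), PHGDH (-1.16) and CHAC1 (-1.53) fell and ASNS, asparagine synthetase, rose. The call of CHAC1 was lost without any 1 OCI-AML3 library (adjusted p from 0.0571 to 0.0821). ASNS was at 54.2, 50.7 and 54.0 CPM in controls and at 107, 102 and 110 CPM with FHD-286 (1.00 ± 0.29, adjusted p = 0.0169), with every treated library above every control, while the cytosolic asparagine enzyme NARS1 changed by -0.21. Its call was lost without OCI-AML3 control replicate 2 or 3 (adjusted p = 0.0547 and 0.0513), and 44.6% of its exon length overlaps another gene. In FLT3-ITD cells PHGDH (-0.93), TRIB3 (-0.93) and SESN2 (-1.01) fell. These calls depended on single libraries: PHGDH lost its call without any other 1 library than the one labelled control replicate 2, TRIB3 in 7 such fits and SESN2 in 4. Without the library labelled replicate 2 of the OCI-AML3-FLT3-ITD controls, 8 of 9 fell there (median -1.24), among them ASNS, at -0.18 against 0.17 with all libraries. In that fit 24.2% of all genes were called lower in FLT3-ITD cells, against 14.9% with all libraries, so part of the larger count follows the higher share called. MYC was at 781 to 871 CPM in OCI-AML3 controls and 218 to 233 CPM with FHD-286 (-1.87 ± 0.10, adjusted p = 4.6e-07), and at 598 to 759 CPM in FLT3-ITD controls and 178 to 200 CPM with FHD-286 (-1.82 ± 0.11, adjusted p = 2.75e-06, and -1.71 without that library). The part of MYC, of ATF4 or of the change in myeloid markers in the synthetase levels was not tested.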

How the data were processed

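Bulk RNA sequencing libraries of total RNA from 2 cell lines, made with Illumina protocols per the labels, were analysed from the table of raw read counts per gene that the authors deposited. The submitters' processing notes name STAR and hg38, and the counting program, strand setting and annotation are not given in the sources used here. Genes were tested with edgeR 4.0.16 (quasi-likelihood test, composition factors, filterByExpr with a minimum count of 10) in R 4.3.3 over all 11 libraries in 4 groups, with p-values adjusted by Benjamini-Hochberg over 18908 genes. A gene was called at an adjusted p under 0.05. Standard errors are approximate, computed from the fold change and its F statistic. CPM values are descriptive, and per kilobase they use GENCODE 29 exon length, found for 57433 of 58037 rows. With 58397190 to 79172389 counts per library, counting error was small except for SARS2. The fit was checked on simulated counts with 1 spread for every gene and no library that went against its label. It recovered 76% to 90% of 2-fold changes in the comparisons of groups, but 38% in the difference of effects. Changes under 2-fold were not simulated. Alternatives were DESeq2 1.42.0, other scaling, filters, fits of only the groups compared, a replicate block, and leaving out each library.

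The set of members, defined by gene names alone, and the gene lists were chosen with earlier results of these data known. Values per library were given by rule: for up to 8 cytosolic and 6 mitochondrial members with the largest changes called with FHD-286, for members called against most of their class, for up to 6 per direction by p between lines, and for all called in the difference of effects. Promoters come from RefSeq's GRCh38.p14 table, matched by symbol.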

Additional observations from a re-analysis of the deposited data

Results flagged for a closer look

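The fall of MARS2 with FHD-286 differed between the lines. The difference of the log2 effects was -0.61 (adjusted p = 0.018, edgeR's quasi-likelihood test of the interaction over 18908 genes), and MARS2 fell by 16.3% in OCI-AML3 and fell by 45.3% in OCI-AML3-FLT3-ITD cells. MARS2 was lower with FHD-286 in 3 of 3 treated OCI-AML3 libraries and in 2 of 2 treated OCI-AML3-FLT3-ITD libraries, against all controls of the same line. The call was lost in 7 of the 11 fits that left out 1 library, with adjusted p from 0.0519 to 0.113.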

How the results depend on the processing

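Of the genes called with all libraries, 17 of 25 falls in OCI-AML3, 4 of 12 in OCI-AML3-FLT3-ITD, 5 of 23 differences between untreated lines, 3 of 14 between treated lines and 0 of 1 difference of effects stayed called in the same direction under every alternative run. Leaving out 1 library gave 18 to 31 called synthetases for FHD-286 in OCI-AML3, 5 to 31 in OCI-AML3-FLT3-ITD, 10 to 29 between untreated lines, 4 to 20 between treated lines and 0 to 6 for the difference of effects. The upper end came in each comparison without the library labelled replicate 2 of the OCI-AML3-FLT3-ITD controls. For the lower ends the share of all genes called is not given here, so a loss particular to the synthetases cannot be told from a general one. Fits of only the groups compared called 4 synthetases for FHD-286 in OCI-AML3-FLT3-ITD, 5 between untreated lines and 22 between treated lines. For FHD-286 in OCI-AML3 such a fit kept all 25 calls and gained 6. The fits with 4 and 5 calls hold the library labelled replicate 2 of the OCI-AML3-FLT3-ITD controls and the others do not, and the cause was not tested. DESeq2's Wald test called 2 for the difference of effects. ASNS with FHD-286 in OCI-AML3-FLT3-ITD was 0.17 on the log2 scale and ranged from -0.18 to 0.41 when 1 library was left out, with the lowest value without the library just named.

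Whether replicate numbers pair the libraries was not settled. Of 15 same-numbered pairs, 2 had deviations from the group mean correlated above 0.1, and 7 of 11 libraries correlated best with their own number. Deviations within a group are tied together: the 2 treated FLT3-ITD libraries mirror each other, at r = 0.104 and -0.104 with FLT3-ITD control replicate 1. These counts therefore cannot decide the question. With the replicate block, 25, 9, 21, 14 and 1 synthetases were called in the order above. SARS2 had the fewest counts, 20 to 60 per library, which limits its precision, and the cause of its low counts was not tested.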
